A study of Homo sapiens with 9 samples.

Results

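The 47 genes described here code for the non-collagen proteins of the extracellular matrix and for the enzymes that crosslink, cut and protect it. They were chosen by symbol from the deposited count table, with collagens and integrins left out, and all 47 were found among its 25382 entries. Of these, 42 had enough reads to be tested, out of 14731 genes tested in all; THBS1, VCAN, NID2, LOXL4 and PLAU did not. The cells were 501mel, an established human melanoma line, grown in DMEM with 10% FBS and harvested 24 h after lipofection of a DsiRNA, a synthetic double-stranded RNA that Dicer trims into a silencing RNA. One group received DsiRNA 13.6 against TBX3, another DsiRNA 13.8 against TBX3, and the control group the DsiRNA NC1; each group had 3 libraries of total RNA, called biological replicates. All groups share the same line and the same way of transfection. The study concerns TBX3, a T-box transcription factor, in pigment cells without signalling through the melanocortin receptor MC1R.

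The matrix is a mesh that cells secrete around themselves. Fibronectin, thrombospondins and tenascins bind integrins and growth factors. Laminins are trimers of an alpha, a beta and a gamma chain, and with nidogen, perlecan and agrin they form basement membranes. Lysyl hydroxylases and lysyl oxidases prepare and make the crosslinks of collagen and elastin. Matrix metalloproteinases (MMPs), the ADAM and ADAMTS metalloproteinases and the plasminogen activators cut these proteins or release them from the cell surface, and TIMPs and serpins inhibit the proteases. In melanoma, matrix proteins and their proteases are best known for their part in adhesion and invasion.

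Levels are given as CPM, the depth-scaled unit of reads per gene (reads over the library total times its TMM factor), and comparisons as log2 fold changes ± SE. The SE is the absolute log2 fold change over the square root of the F of the test named next. A gene is said to have risen or fallen where edgeR's quasi-likelihood test, its p adjusted by Benjamini-Hochberg over all tested genes, gave an adjusted p below 0.05. Libraries held 38105026 to 52272147 counted reads. TBX3 was lower in each knockdown library than in any control, at 46.4, 41.0 and 39.4 CPM with 13.6, 36.1, 33.7 and 36.2 CPM with 13.8, and 88.6, 83.8 and 84.0 CPM in control, a log2 fold change of −1.02 ± 0.07 with 13.6 and −1.27 ± 0.07 with 13.8. The melanocyte markers PMEL, MLANA, TYR, TYRP1, DCT, SOX10 and MITF were all present, summing to 13810 to 14960 CPM with 13.6, 17290 to 18110 CPM with 13.8 and 13330 to 15340 CPM in control. The sum hides unequal changes: with 13.8 TYRP1 rose (1.12 ± 0.06), as did DCT and TYR, while MITF (−0.97 ± 0.11), SOX10 (−0.35 ± 0.07) and MLANA (−0.27 ± 0.07) fell. With 13.6 TYR (1.09 ± 0.07) and SOX10 (0.32 ± 0.07) rose, while TYRP1 (−0.42 ± 0.06), DCT (−0.49 ± 0.10) and MLANA (−0.20 ± 0.07) fell.

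With DsiRNA 13.6, 20 of the 42 tested genes rose against control and 8 fell, which is 66.7% called where 49.9% of all tested genes were called (24.9% higher and 25% lower). Their median log2 fold change was 0.29, beside −0.01 over all tested genes. With DsiRNA 13.8, 28 rose and 1, ADAM17, fell, or 69% called, where 55.5% of all tested genes were called (27.5% higher and 27.9% lower). The median with 13.8 was 0.58, beside 0.01 over all genes. THBS2, LOXL1, MMP1 and FBLN2 had enough reads to be tested only through the 13.8 libraries, where their means were highest. TIMP3, also with its highest mean there, had enough only through 13.8 replicates 2 and 3 together with control replicate 3. The calls of these genes, here, by role and in the direct comparison, are therefore descriptions. Set directly against each other, 7 genes were higher and 24 lower with 13.6 than with 13.8, or 73.8% called beside 61.1% of all genes (30.9% higher and 30.2% lower), with a median of −0.65 beside −0.02. The summed level of 9 fibroblast markers was also highest with 13.8, at 7.26 to 8.90 CPM with 13.6, 26.6 to 27.2 CPM with 13.8 and 5.58 to 6.84 CPM in control, and its part in the rises with 13.8 was not tested. In bulk RNA, fewer cells of a type and less RNA per cell cannot be told apart. The 3 comparisons share libraries, so their values are given side by side and no agreement between them is counted. The fold changes plotted by role show that every role but the ADAM proteases held rises with 13.8, while with 13.6 each role except the ADAM proteases and the plasminogen activation genes held both rises and genes that were not called or fell.

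**Figure D1:**
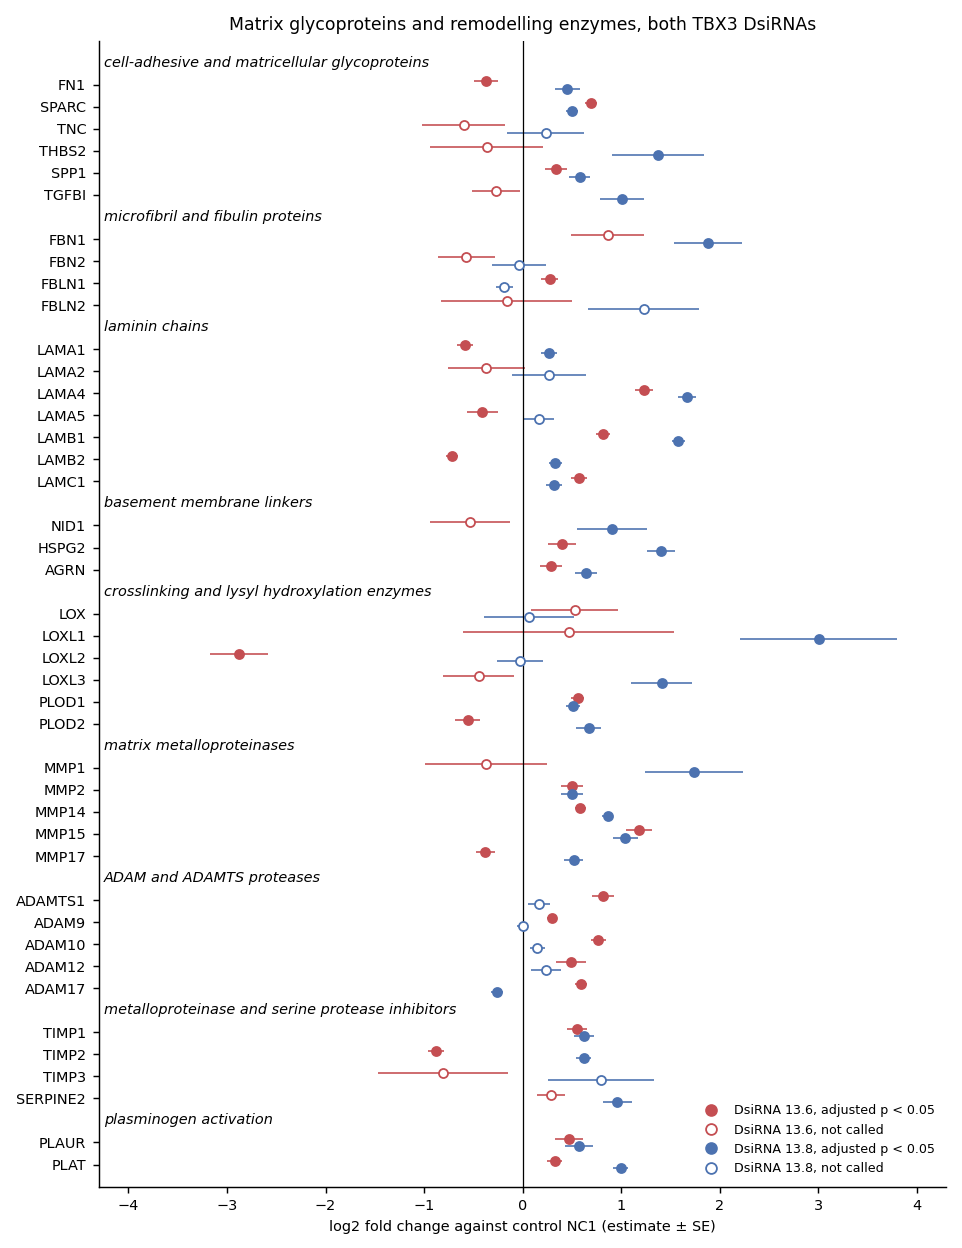
Log2 fold change against control NC1 (x axis, estimate ± SE) of the 42 tested genes, grouped by role, for DsiRNA 13.6 (red) and DsiRNA 13.8 (blue); filled points passed an adjusted p of 0.05 by edgeR. LOXL2 stands at −2.88 with 13.6 and −0.03 with 13.8, and the 5 ADAM and ADAMTS genes lie right of 0 with 13.6.

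The levels of the genes spanned about 5 orders of magnitude. Per kilobase of its GENCODE v29 transcript, FN1 was highest in control, at 192 CPM per kb with 13.6, 339.9 with 13.8 and 248 in control. SERPINE2 (272, 434 and 223 CPM per kb), SPARC (162, 141 and 99.7), PLAT (114, 181 and 91.0) and MMP14 (110, 133 and 73.0) followed, each in the order 13.6, 13.8 and control. The SDs of FN1 and SERPINE2 in control were 51.4 and 51.2 CPM per kb, so the order of these neighbours did not differ beyond their spread. At the other end, the 17 genes ranked below TGFBI, from TNC down to VCAN, stayed under 1 CPM per kb in all groups. So did TGFBI, ADAM12 and LOXL2. Among the 17 are FBN1, LOX, THBS1 and VCAN.

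**Figure D2:**
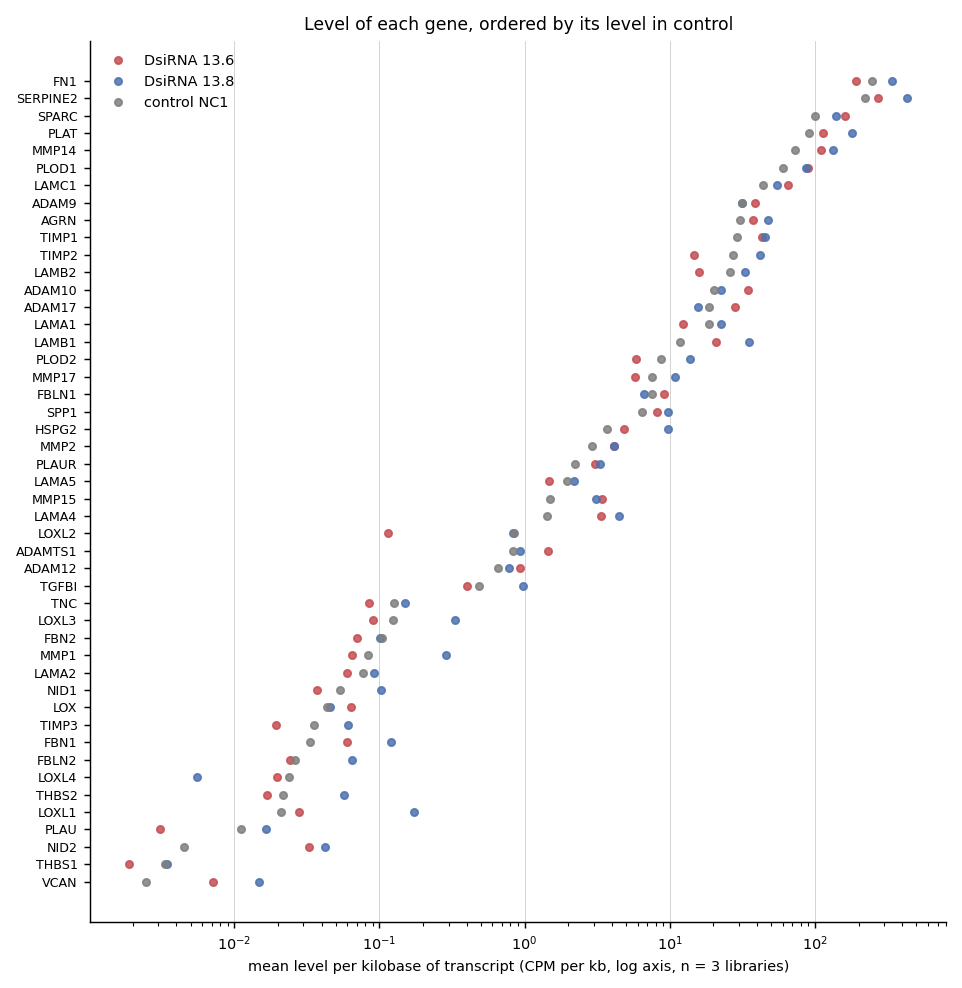
Mean level per kilobase of transcript (x axis, CPM per kb on a log axis, n = 3 libraries) of all 47 genes, ordered from top to bottom by the level in control; red is DsiRNA 13.6, blue DsiRNA 13.8 and grey control. FN1, at 192, 339.9 and 248 CPM per kb, leads in control, and LOXL2 and TIMP2 show the red point set far to the left of the other two.

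Among the adhesive and matricellular glycoproteins, 2 of 6 tested genes rose and 1 fell with 13.6 (median −0.32), and 5 rose with 13.8 (median 0.54). The shares of all tested genes to set beside this and every role below are 24.9% higher and 25% lower with 13.6. With 13.8 they are 27.5% higher and 27.9% lower. FN1, which codes for fibronectin, the main integrin-binding glycoprotein of provisional matrix, gave 1677, 1396 and 1468 CPM with 13.6, 2809, 2746 and 2498 CPM with 13.8, and 2404, 1862 and 1611 CPM in control. The 13.8 libraries lay above all others, and the 13.6 libraries overlapped the controls, which were themselves spread from 1611 to 2404 CPM. FN1 fell with 13.6 (−0.37 ± 0.12, adjusted p = 0.025) and rose with 13.8 (0.45 ± 0.12, adjusted p = 0.0074); set directly against each other, 13.6 was lower (−0.83 ± 0.12, adjusted p = 8.7e-05). The call with 13.6 did not hold without single libraries: the value was −0.20, adjusted p = 0.103 without control replicate 1, −0.32, adjusted p = 0.0952 without 13.6 replicate 2 and −0.35, adjusted p = 0.0747 without 13.6 replicate 3.

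SPARC, a collagen-binding matricellular protein much expressed in melanoma, gave 595, 614 and 587 CPM with 13.6, 486, 547 and 529.7 CPM with 13.8, and 368, 364 and 375 CPM in control. All knockdown libraries were above all controls, and those of 13.6 above those of 13.8. SPARC rose with 13.6 (0.70 ± 0.06, adjusted p = 8.9e-07) and with 13.8 (0.50 ± 0.06, adjusted p = 1.4e-05), and was higher with 13.6 than with 13.8 (0.20 ± 0.06, adjusted p = 0.011). SPP1 codes for osteopontin, a secreted phosphoprotein that binds integrins and CD44, and gave 13.1, 12.9 and 12.9 CPM with 13.6, 13.4, 17.3 and 15.3 CPM with 13.8, and 10.9, 10.8 and 9.10 CPM in control. It too lay above control in every knockdown library, with 0.34 ± 0.11, adjusted p = 0.019 for 13.6 and 0.58 ± 0.11, adjusted p = 4.6e-04 for 13.8; the first was 0.26, adjusted p = 0.0628 without control replicate 3. Between the DsiRNAs SPP1 did not pass the test (−0.24 ± 0.10, adjusted p = 0.062), though it passed in 6 alternatives (−0.24 to −0.33, adjusted p 0.0144 to 0.0484), among them those without control replicate 3 and without 13.8 replicate 1.

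TGFBI, a secreted adhesion protein induced by TGF-beta, stood near 1 CPM, at 1.14, 1.19 and 1.08 CPM with 13.6, 1.92, 2.94 and 3.40 CPM with 13.8, and 1.17, 1.35 and 1.59 CPM in control. Only the 13.8 libraries were set apart. TGFBI rose with 13.8 (1.01 ± 0.23, adjusted p = 0.0019) and was lower with 13.6 than with 13.8 (−1.28 ± 0.23, adjusted p = 3.0e-04), while 13.6 against control did not pass (−0.27 ± 0.24, adjusted p = 0.38). THBS2, an anti-angiogenic thrombospondin, had 3 to 5 reads with 13.6, 12 to 21 with 13.8 and 3 to 7 in control, and rose with 13.8 (1.37 ± 0.47, adjusted p = 0.024). That call was lost without control replicate 2 (1.14, adjusted p = 0.0858), without 13.8 replicate 1 (1.33, adjusted p = 0.0586), without 13.8 replicate 2 (1.22, adjusted p = 0.0917) and with no filter on reads (1.37, adjusted p = 0.0751). THBS2 was lower with 13.6 than with 13.8 (−1.74 ± 0.49, adjusted p = 0.0073). TNC, tenascin-C, was at 23 to 37, 36 to 79 and 23 to 74 reads in 13.6, 13.8 and control, and passed no test (−0.60 ± 0.42, 0.23 ± 0.39 and −0.83 ± 0.41 in the 3 comparisons). The last passed in a fit of the 2 groups alone (−0.83, adjusted p = 0.0412), without control replicate 1 (−0.83, adjusted p = 0.0458) and without 13.8 replicate 1 (−1.06, adjusted p = 0.0446). THBS1 and VCAN had at most 3 and 10 reads in any library and were not tested.

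Of the microfibril and fibulin genes, 1 of 4 rose with 13.6 (median 0.06) and 1 of 4 with 13.8 (median 0.59). Both counts are near the shares of all tested genes that rose, 24.9% with 13.6 and 27.5% with 13.8. FBLN1, the one abundant member here and a binder of fibronectin and basement membrane proteins, ran at 25.2 to 27.6 CPM with 13.6, 18.0 to 20.5 CPM with 13.8 and 19.8 to 23.3 CPM in control. The 13.6 libraries lay above all others. FBLN1 rose with 13.6 (0.27 ± 0.08, adjusted p = 0.014), a call lost without 13.6 replicate 2 (0.24, adjusted p = 0.0621), and was higher with 13.6 than with 13.8 (0.46 ± 0.08, adjusted p = 3.2e-04), while 13.8 against control did not pass (−0.19 ± 0.08, adjusted p = 0.073); it passed without control replicate 3 (−0.25, adjusted p = 0.0182) and without 13.8 replicate 1 (−0.24, adjusted p = 0.0431). FBN1, fibrillin-1 of elastic microfibrils, had 19 to 39 reads with 13.6, 63 to 77 with 13.8 and 9 to 23 in control, and rose with 13.8 (1.88 ± 0.35, adjusted p = 4.8e-04), while 13.6 did not pass (0.86 ± 0.37, adjusted p = 0.07). Without control replicate 2 or 13.6 replicate 1 the 13.6 value passed (1.29, adjusted p = 0.0196, and 1.08, adjusted p = 0.0352). Against 13.8 it was lower with 13.6 (−1.02 ± 0.32, adjusted p = 0.014), a call lost without 13.6 replicate 1 (−0.80, adjusted p = 0.0631) and without 13.8 replicate 3 (−0.94, adjusted p = 0.0512). FBN2, its developmental relative, passed no test (−0.57 ± 0.29, −0.04 ± 0.28 and −0.54 ± 0.29), but without 13.6 replicate 1 it was lower with 13.6 than in control (−0.85, adjusted p = 0.0415) and than with 13.8 (−0.81, adjusted p = 0.0397). FBLN2, at 17 reads or fewer in every library, was lower with 13.6 than with 13.8 (−1.39 ± 0.57, adjusted p = 0.048); that call was lost without control replicate 3 and without any 1 of the 6 knockdown libraries (−1.26 to −1.59, adjusted p 0.0559 to 0.131), as well as with DESeq2, with no filter and with the replicate block. FBLN2 did not pass with 13.8 (1.23 ± 0.56, adjusted p = 0.079), and passed without control replicate 1 (2.10, adjusted p = 0.0197).

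The laminin chains changed unequally. LAMA4, the alpha 4 chain of vascular and mesenchymal laminins, and LAMB1, the beta 1 chain, rose with both DsiRNAs, as did LAMC1, the gamma 1 chain that most laminins share. LAMB2, the beta 2 chain that replaces beta 1 in some trimers, and LAMA1, the alpha 1 chain of embryonic basement membrane, fell with 13.6 and rose with 13.8. With 13.6, 3 of 7 tested chains rose and 3 fell (median −0.37), and with 13.8, 5 of 7 rose (median 0.32).

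The promoters of the 3 chains that rose with both DsiRNAs, and of LAMB2, are shown because these genes code for chains of shared trimers and their readouts can be set against their sequence. Each is the RefSeq window of 300 bases (GRCh38.p14, 250 bases before the annotated start and 50 after), read 5′ to 3′ on the gene's strand, with the GC box GGGCGG, or its reverse complement CCGCCC, in capitals.
LAMA4 (chr6:112254518-112254817, minus strand): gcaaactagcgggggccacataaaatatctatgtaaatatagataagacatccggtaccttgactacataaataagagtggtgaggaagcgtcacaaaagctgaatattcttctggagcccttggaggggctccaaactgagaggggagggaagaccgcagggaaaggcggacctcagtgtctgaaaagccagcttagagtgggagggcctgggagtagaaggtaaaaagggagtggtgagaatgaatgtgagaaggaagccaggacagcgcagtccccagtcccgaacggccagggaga
LAMB1 (chr7:108003112-108003411, minus strand): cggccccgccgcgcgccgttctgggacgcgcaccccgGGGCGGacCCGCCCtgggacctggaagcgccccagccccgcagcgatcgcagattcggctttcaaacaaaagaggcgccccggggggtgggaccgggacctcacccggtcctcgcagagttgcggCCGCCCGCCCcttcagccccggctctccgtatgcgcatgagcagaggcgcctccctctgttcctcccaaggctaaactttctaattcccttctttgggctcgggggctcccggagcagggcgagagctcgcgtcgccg
LAMC1 (chr1:183023170-183023469, plus strand): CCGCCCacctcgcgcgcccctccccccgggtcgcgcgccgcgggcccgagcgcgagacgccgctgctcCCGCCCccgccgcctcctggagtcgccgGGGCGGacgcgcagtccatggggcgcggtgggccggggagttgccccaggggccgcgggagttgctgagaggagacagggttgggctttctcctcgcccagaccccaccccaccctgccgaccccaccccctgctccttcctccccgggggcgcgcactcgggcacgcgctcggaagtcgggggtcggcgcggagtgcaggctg
LAMB2 (chr3:49133001-49133300, minus strand): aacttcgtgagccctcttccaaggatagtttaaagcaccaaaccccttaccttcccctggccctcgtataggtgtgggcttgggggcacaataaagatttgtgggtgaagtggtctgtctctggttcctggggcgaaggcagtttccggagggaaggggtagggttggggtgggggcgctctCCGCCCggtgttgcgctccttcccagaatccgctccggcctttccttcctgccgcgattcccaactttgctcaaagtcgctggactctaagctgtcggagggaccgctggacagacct
The LAMB1 window holds 4 GC boxes, of which 2 overlap, the LAMC1 window 3 and the LAMB2 window 1, and the LAMA4 window none. Their GC contents were 71% for LAMB1, 79% for LAMC1, 58.7% for LAMB2 and 51.3% for LAMA4. The other motifs searched on both strands were the T-box half-site core GGTGTGA, the AP-1 site TGANTCA, the M-box TCATGTG, the TATA box TATAAA and the CCAAT box CCAAT, and none is in these 4 windows.

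Promoter windows were at hand for 37 of the 47 genes, and 27 of these held the GC box (73%), where 44.6% of all 27305 promoters and 68.5% of those of tested genes did. CCAAT was in 12 of the 37 (32.4%, beside 35.7% of all promoters and 36.6% of those of tested genes), TATAAA in that of THBS2 (2.7%, beside 12% and 5.77%) and TGANTCA in that of PLAUR (2.7%, beside 7.76% and 4.8%). GGTGTGA, found in 3.43% of all promoters and 2.9% of those of tested genes, and TCATGTG, found in 2.99% and 1.86%, were in none of the 37. These matches describe the windows only.

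LAMA4 gave 21.4, 21.6 and 21.5 CPM with 13.6, 31.0, 26.7 and 29.2 CPM with 13.8, and 8.05, 9.49 and 9.93 CPM in control. The groups did not overlap: 13.8 was highest, 13.6 next and control lowest. LAMA4 was 2.35-fold higher with 13.6 (1.23 ± 0.09, adjusted p = 2.0e-07) and 3.17-fold higher with 13.8 (1.66 ± 0.09, adjusted p = 8.7e-09), and 13.6 stayed below 13.8 (−0.43 ± 0.09, adjusted p = 7.6e-04). LAMB1 gave 124, 119 and 113 CPM with 13.6, 213, 198 and 196 CPM with 13.8, and 73.2, 65.9 and 63.5 CPM in control, again with no overlap and in the same order of groups. It was 1.76-fold higher with 13.6 (0.82 ± 0.07, adjusted p = 6.0e-07), 2.99-fold higher with 13.8 (1.58 ± 0.07, adjusted p = 1.4e-09), and lower with 13.6 than with 13.8 (−0.76 ± 0.07, adjusted p = 5.4e-07).

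LAMC1 gave 535, 506 and 512 CPM with 13.6, 472, 405 and 422 CPM with 13.8, and 342, 387 and 314 CPM in control. Every knockdown library exceeded every control, and here the 13.6 libraries were the highest. LAMC1 rose with 13.6 (0.57 ± 0.08, adjusted p = 6.6e-05) and with 13.8 (0.32 ± 0.08, adjusted p = 0.0048). It was higher with 13.6 than with 13.8 (0.26 ± 0.08, adjusted p = 0.015), a call lost without 13.6 replicate 1 (0.24, adjusted p = 0.0512) and without 13.8 replicate 2 (0.21, adjusted p = 0.0625).

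LAMB2 gave 94.5, 90.3 and 86.7 CPM with 13.6, 191, 186 and 184 CPM with 13.8, and 159.5, 149 and 137.5 CPM in control. The 13.6 libraries lay below all controls and the 13.8 libraries above them. LAMB2 fell with 13.6 (−0.72 ± 0.06, adjusted p = 1.1e-06), rose with 13.8 (0.33 ± 0.06, adjusted p = 6.3e-04) and was lower with 13.6 than with 13.8 (−1.05 ± 0.06, adjusted p = 2.0e-08). LAMA1 followed the same order of groups, with 126, 116 and 117 CPM with 13.6, 235, 201 and 213 CPM with 13.8, and 198, 180.1 and 160.0 CPM in control, and no group overlapped another. Its log2 fold changes were −0.58 ± 0.08, adjusted p = 6.3e-05 for 13.6, 0.27 ± 0.08, adjusted p = 0.012 for 13.8 and −0.85 ± 0.08, adjusted p = 1.2e-06 for 13.6 against 13.8.

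LAMA5, the alpha 5 chain of adult basement membranes, gave 18.9, 14.8 and 16.6 CPM with 13.6, 27.5, 24.7 and 23.0 CPM with 13.8, and 26.1, 24.6 and 16.2 CPM in control, and each knockdown group overlapped control. LAMA5 was lower with 13.6 than in control (−0.41 ± 0.16, adjusted p = 0.045), but the call was lost without control replicate 1 (−0.28, adjusted p = 0.182), without control replicate 2 (−0.34, adjusted p = 0.14), without 13.6 replicate 2 (−0.33, adjusted p = 0.149), without 13.6 replicate 3 (−0.41, adjusted p = 0.101) and without 13.8 replicate 2 (−0.41, adjusted p = 0.0609). It was also lost with no filter on reads and in a fit of the 2 groups alone (adjusted p 0.0927 and 0.0591). LAMA5 did not pass with 13.8 (0.17 ± 0.15, adjusted p = 0.38), and 13.6 was lower than 13.8 (−0.58 ± 0.16, adjusted p = 0.0064). LAMA2, the alpha 2 chain of muscle laminin, stayed under 1 CPM and passed no test (−0.37 ± 0.39, 0.27 ± 0.37 and −0.63 ± 0.38).

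**Figure D3:**
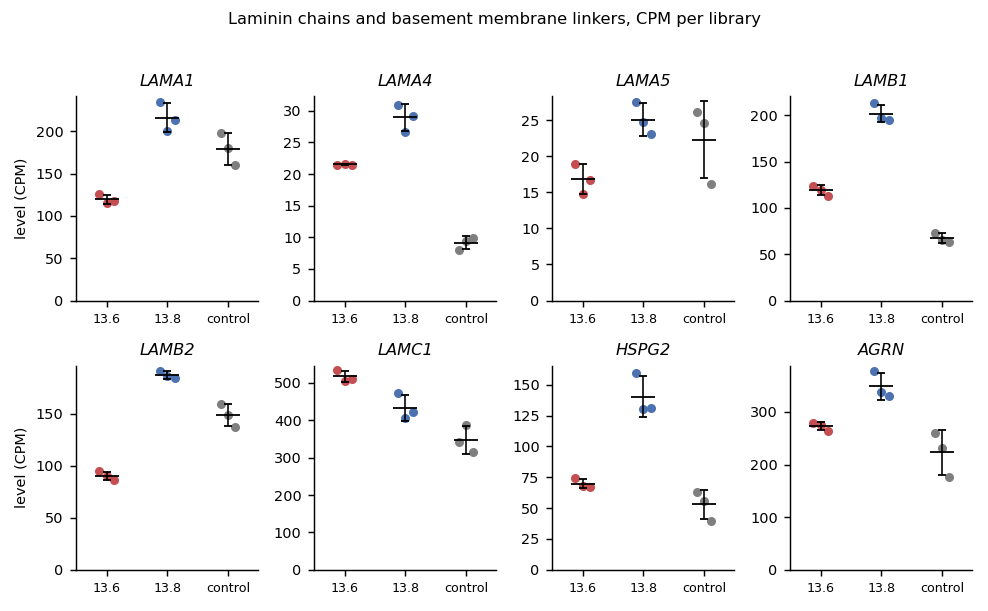
CPM per library (y axis from 0) of 6 laminin chains and of HSPG2 and AGRN, in DsiRNA 13.6, DsiRNA 13.8 and control; points are libraries, and bars mark the mean ± SD, n = 3. LAMA4 and LAMB1 step down in the order 13.8, 13.6 and control, while LAMA1 and LAMB2 have their lowest libraries with 13.6.

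Within a library, the reads of LAMB1 over those of LAMB2 were 1.31, 1.32 and 1.31 with 13.6, 1.12, 1.06 and 1.06 with 13.8, and 0.46, 0.44 and 0.46 in control. The ratio of LAMA4 to LAMA1 reads was 0.17, 0.187 and 0.183 with 13.6, 0.132, 0.133 and 0.137 with 13.8, and 0.0407, 0.0527 and 0.0621 in control. Both ratios were higher in each knockdown library than in any control. They need no scaling between libraries, and they show unequal change of the 2 genes, not which of them changed; read counts of different genes also depend on their lengths.

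The genes that link laminins to the rest of the basement membrane were higher with 13.8 in 3 of 3 tested (median 0.91) and with 13.6 in 2 of 3 (median 0.29). HSPG2 codes for perlecan, the large heparan sulfate proteoglycan of basement membranes, and gave 74.2, 68.2 and 67.0 CPM with 13.6, 159.5, 130.5 and 131 CPM with 13.8, and 63.1, 55.8 and 39.9 CPM in control. Every knockdown library exceeded every control, and the 13.8 libraries were far above both other groups. HSPG2 was 2.65-fold higher with 13.8 (1.41 ± 0.14, adjusted p = 5.4e-06) and rose with 13.6 (0.40 ± 0.14, adjusted p = 0.033), and 13.6 was lower than 13.8 (−1.01 ± 0.14, adjusted p = 6.3e-05). The rise with 13.6 was 0.23 without control replicate 3, and was lost without 13.6 replicate 1 (0.35, adjusted p = 0.0984), replicate 2 (0.42, adjusted p = 0.0535) or replicate 3 (0.42, adjusted p = 0.0542), with library totals as scaling (adjusted p 0.0514) and with no filter (0.0868).

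AGRN codes for agrin, a proteoglycan that organises synapses and binds laminin, and gave 279.5, 275 and 264 CPM with 13.6, 378, 337 and 330.1 CPM with 13.8, and 260.3, 232 and 177 CPM in control. The groups kept the order of HSPG2, with control replicate 1 the closest control to the 13.6 libraries. AGRN rose with 13.8 (0.64 ± 0.11, adjusted p = 3.4e-04) and, at the edge of the threshold, with 13.6 (0.29 ± 0.11, adjusted p = 0.046). Without control replicate 3 the value for 13.6 was 0.15, adjusted p = 0.103; the call was also lost without control replicate 2, without any 1 of the 13.6 libraries, without 13.8 replicate 2, with library totals and with no filter, at 0.25 to 0.32 and adjusted p of 0.0532 to 0.11. AGRN was lower with 13.6 than with 13.8 (−0.35 ± 0.11, adjusted p = 0.015), a call lost without 13.6 replicate 3 (−0.33, adjusted p = 0.0515) and without 13.8 replicate 1 (−0.29, adjusted p = 0.053). NID1, nidogen-1, which bridges laminin and type IV collagen, had 8 to 12 reads with 13.6, 23 to 36 with 13.8 and 10 to 17 in control. It rose with 13.8 (0.91 ± 0.36, adjusted p = 0.045), and 12 of the alternatives ended that call, among them leaving out any 1 of the 13.6 libraries (0.90 to 0.91, adjusted p 0.0545 to 0.0578), 13.8 replicate 1 (0.87, adjusted p = 0.0982) or 13.8 replicate 3 (0.73, adjusted p = 0.164). Without a control library the values were 1.03, adjusted p = 0.063, 0.79, adjusted p = 0.129 and 0.91, adjusted p = 0.102 for replicates 1, 2 and 3. NID1 was lower with 13.6 than with 13.8 (−1.44 ± 0.37, adjusted p = 0.0045). NID2 had 5 to 9 reads with 13.6, 6 to 16 with 13.8 and 0 to 3 in control and was not tested.

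Of the crosslinking enzymes, 1 of 6 tested rose and 2 fell with 13.6 (median 0.01), and 4 rose with 13.8 (median 0.59). LOXL2, a lysyl oxidase that crosslinks collagen IV of basement membranes, gave 0.485, 0.41 and 0.33 CPM with 13.6, 3.16, 3.04 and 2.68 CPM with 13.8, and 4.33, 2.16 and 2.49 CPM in control. It was far lower in the 13.6 libraries than in all others, and 13.8 overlapped control. LOXL2 fell with 13.6 (−2.88 ± 0.30, adjusted p = 3.7e-06; a fold of 0.136), did not pass with 13.8 (−0.03 ± 0.23, adjusted p = 0.93), and differed between the DsiRNAs (−2.86 ± 0.29, adjusted p = 2.3e-06). The 13.6 libraries held 20, 19 and 15 reads of it.

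PLOD1, a lysyl hydroxylase of collagen helices, gave 254, 257 and 275 CPM with 13.6, 264, 253 and 244 CPM with 13.8, and 182, 189.8 and 162 CPM in control. The knockdown groups overlapped each other and lay above control. PLOD1 rose with 13.6 (0.56 ± 0.07, adjusted p = 1.8e-05) and with 13.8 (0.51 ± 0.07, adjusted p = 3.0e-05), and the direct difference was 0.05 ± 0.07, adjusted p = 0.57. PLOD2, which hydroxylates the ends of collagen chains and so steers the type of crosslink, gave 22.5, 18.5 and 25.1 CPM with 13.6, 55.8, 52.4 and 46.9 CPM with 13.8, and 36.8, 33.7 and 26.9 CPM in control. Its 13.6 libraries were below, and its 13.8 libraries above, all controls. PLOD2 fell with 13.6 (−0.56 ± 0.13, adjusted p = 0.0028), rose with 13.8 (0.67 ± 0.12, adjusted p = 5.6e-04) and was lower with 13.6 than with 13.8 (−1.23 ± 0.13, adjusted p = 3.2e-06).

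The other lysyl oxidases were near or under 1 CPM. LOXL3 had 13 to 16 reads with 13.6, 51 to 61 with 13.8 and 13 to 25 in control. It rose with 13.8 (1.41 ± 0.31, adjusted p = 0.0017) and was lower with 13.6 than with 13.8 (−1.86 ± 0.32, adjusted p = 2.2e-04). LOXL1 had 0, 2 and 7 reads with 13.6, 33, 14 and 13 with 13.8, and 1, 3 and 2 in control, and rose with 13.8 (3.00 ± 0.80, adjusted p = 0.0059). It was lower with 13.6 than with 13.8 (−2.54 ± 0.74, adjusted p = 0.009), at −4.00 without 13.6 replicate 3 and at −1.93, adjusted p = 0.051, no longer called, without 13.8 replicate 1. LOX itself, at 7 to 19 reads, passed no test (0.53 ± 0.44, 0.06 ± 0.46 and 0.46 ± 0.43). LOXL4 had at most 8 reads and was not tested.

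Of the MMPs, 3 of 5 rose and 1 fell with 13.6 (median 0.50), and 5 of 5 rose with 13.8 (median 0.86). MMP14, a membrane-bound collagenase that activates pro-MMP2 at the cell surface, was the most abundant, with 404, 425 and 398 CPM with 13.6, 488, 496 and 502 CPM with 13.8, and 280.0, 269 and 269 CPM in control. No group overlapped another. MMP14 rose with 13.6 (0.59 ± 0.06, adjusted p = 1.9e-06) and with 13.8 (0.86 ± 0.06, adjusted p = 3.7e-08), and was lower with 13.6 than with 13.8 (−0.28 ± 0.06, adjusted p = 7.6e-04). MMP2, the gelatinase that MMP14 activates, gave 14.3, 16.4 and 15.3 CPM with 13.6, 15.8, 14.6 and 15.7 CPM with 13.8, and 12.7, 10.5 and 9.24 CPM in control. Its knockdown groups overlapped each other and lay above control. MMP2 rose with 13.6 (0.50 ± 0.11, adjusted p = 0.002) and with 13.8 (0.50 ± 0.11, adjusted p = 0.0017), with a direct difference of 0.0004 ± 0.11, adjusted p = 0.998.

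MMP15, a further membrane-type MMP, gave 13.3, 16.2 and 14.0 CPM with 13.6, 13.5, 13.1 and 12.9 CPM with 13.8, and 5.50, 7.90 and 5.84 CPM in control. All knockdown libraries were above all controls, by 2.27-fold with 13.6 (1.18 ± 0.13, adjusted p = 7.0e-06) and 2.06-fold with 13.8 (1.04 ± 0.13, adjusted p = 1.5e-05), and the knockdown groups overlapped (0.14 ± 0.12, adjusted p = 0.35). MMP17, a membrane-type MMP held by a lipid anchor, gave 13.4, 14.8 and 13.8 CPM with 13.6, 24.1, 28.8 and 25.2 CPM with 13.8, and 19.2, 16.2 and 19.2 CPM in control. It lay below control with 13.6 (−0.38 ± 0.09, adjusted p = 0.0048) and above control with 13.8 (0.52 ± 0.09, adjusted p = 3.6e-04), and was lower with 13.6 than with 13.8 (−0.90 ± 0.09, adjusted p = 2.7e-06). MMP1, the interstitial collagenase, had 2 to 11 reads with 13.6, 23 to 35 with 13.8 and 4 to 10 in control; it rose with 13.8 (1.74 ± 0.50, adjusted p = 0.0091) and was lower with 13.6 than with 13.8 (−2.12 ± 0.51, adjusted p = 0.0029).

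The ADAM and ADAMTS genes rose with 13.6 in 5 of 5 (median 0.59), and with 13.8 none rose and 1 fell (median 0.15). ADAM10, a sheddase of Notch, cadherins and CD44, gave 402, 376 and 402 CPM with 13.6, 280.5, 242 and 246 CPM with 13.8, and 241, 244 and 209 CPM in control. Only the 13.6 libraries stood apart. ADAM10 rose with 13.6 (0.77 ± 0.08, adjusted p = 3.0e-06), did not pass with 13.8 (0.15 ± 0.08, adjusted p = 0.12), and was higher with 13.6 than with 13.8 (0.62 ± 0.08, adjusted p = 1.2e-05). ADAM17, the sheddase of TNF and of EGF receptor ligands, gave 130.4, 125 and 120.1 CPM with 13.6, 71.8, 68.4 and 67.7 CPM with 13.8, and 85.7, 84.3 and 78.8 CPM in control. The 13.6 libraries were above all controls and the 13.8 libraries below them. ADAM17 rose with 13.6 (0.59 ± 0.06, adjusted p = 3.3e-06), fell with 13.8 (−0.26 ± 0.06, adjusted p = 0.0025) and was higher with 13.6 than with 13.8 (0.85 ± 0.06, adjusted p = 7.0e-08).

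ADAMTS1, a secreted protease of proteoglycans, gave 7.66, 7.85 and 7.19 CPM with 13.6, 5.08, 4.50 and 4.84 CPM with 13.8, and 4.11, 4.55 and 4.23 CPM in control, with the 13.6 libraries above all others. It rose with 13.6 (0.82 ± 0.11, adjusted p = 4.1e-05), did not pass with 13.8 (0.16 ± 0.11, adjusted p = 0.24), and was higher with 13.6 than with 13.8 (0.66 ± 0.11, adjusted p = 1.5e-04). ADAM9, another sheddase, ran at 145 to 153 CPM with 13.6, 118 to 125 CPM with 13.8 and 119 to 123 CPM in control, rose with 13.6 (0.30 ± 0.05, adjusted p = 4.6e-04) and was higher with 13.6 than with 13.8 (0.30 ± 0.05, adjusted p = 3.1e-04). ADAM12, a protease of growth factor binding proteins, ran at 6.38 to 8.51, 5.54 to 6.58 and 4.38 to 6.34 CPM in 13.6, 13.8 and control. ADAM12 rose with 13.6 (0.49 ± 0.15, adjusted p = 0.018), a call lost without control replicate 2 (0.44, adjusted p = 0.0586), without control replicate 3 (0.38, adjusted p = 0.0557) and without 13.6 replicate 1 (0.37, adjusted p = 0.0853). With 13.8 the values were −0.0009 ± 0.05 for ADAM9 and 0.24 ± 0.15 for ADAM12, which did not pass; without control replicate 1 ADAM12 was at 0.40 and passed (adjusted p = 0.04).

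**Figure D4:**
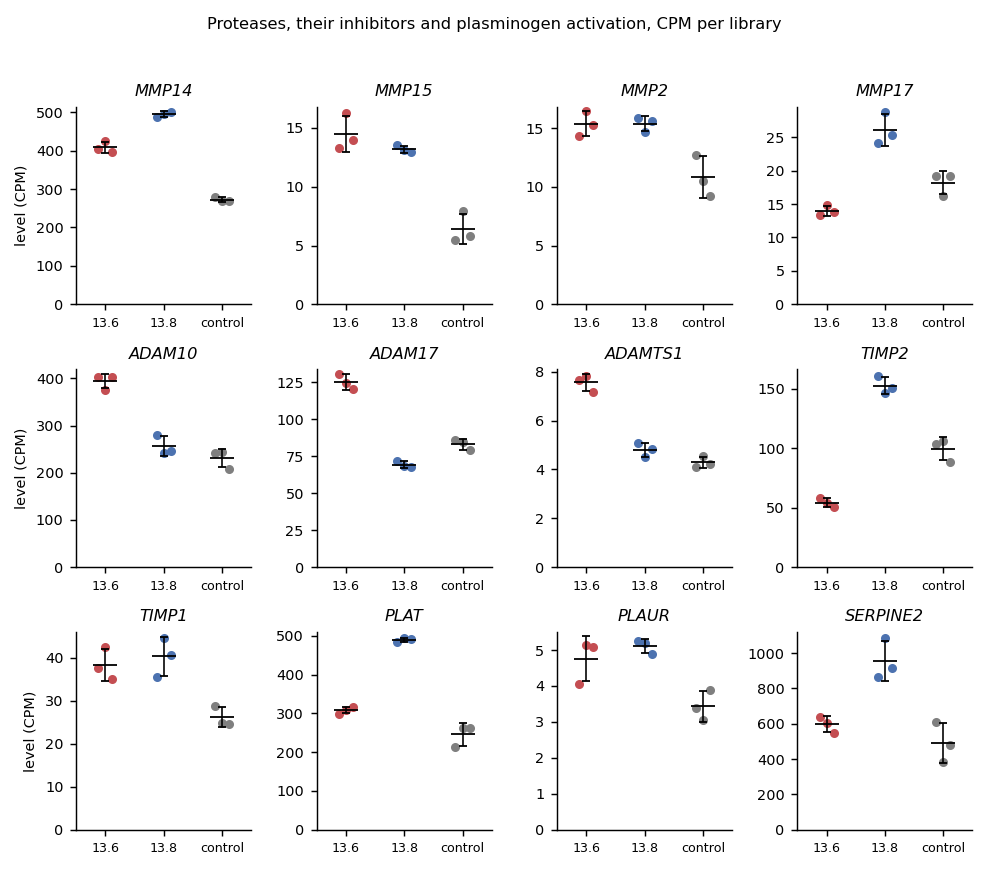
CPM per library (y axis from 0) of 12 proteases, inhibitors and plasminogen activation genes in DsiRNA 13.6, DsiRNA 13.8 and control; points are libraries, and bars mark the mean ± SD, n = 3. TIMP2 is lowest with 13.6 (50.4 to 57.9 CPM) and highest with 13.8 (146 to 160.5 CPM), and ADAM17 the other way round.

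Of the inhibitors, 1 of 4 rose and 1 fell with 13.6 (median −0.26), and 3 of 4 rose with 13.8 (median 0.71). With 13.6 both counts are near the shares of all tested genes, 24.9% higher and 25% lower. TIMP2, which inhibits MMPs and also takes part in the activation of pro-MMP2 by MMP14, gave 57.9, 53.7 and 50.4 CPM with 13.6, 160.5, 146 and 151 CPM with 13.8, and 103.6, 106 and 88.4 CPM in control. The 3 groups did not overlap. TIMP2 fell with 13.6 to 0.543 of control (−0.88 ± 0.08, adjusted p = 1.1e-06), rose 1.53-fold with 13.8 (0.62 ± 0.08, adjusted p = 1.8e-05) and was lower with 13.6 than with 13.8 (−1.50 ± 0.08, adjusted p = 5.8e-09). TIMP1, a soluble MMP inhibitor, gave 37.6, 42.3 and 34.9 CPM with 13.6, 35.5, 44.6 and 40.7 CPM with 13.8, and 28.8, 24.8 and 24.7 CPM in control, with every knockdown library above control. TIMP1 rose with 13.6 (0.55 ± 0.10, adjusted p = 5.0e-04) and with 13.8 (0.62 ± 0.10, adjusted p = 1.4e-04), with a direct difference of −0.07 ± 0.10, adjusted p = 0.54.

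Within a library, MMP14 reads over TIMP2 reads came to 6.99, 7.92 and 7.89 with 13.6, 3.04, 3.39 and 3.33 with 13.8, and 2.70, 2.54 and 3.04 in control. All 13.6 libraries were far above the others, while the lowest 13.8 library met the highest control. SERPINE2, protease nexin-1, which inhibits thrombin and plasminogen activators, gave 640.0, 605 and 548 CPM with 13.6, 863, 1083 and 915 CPM with 13.8, and 608, 384 and 477 CPM in control. The 13.8 libraries lay above all others, and 13.6 overlapped control. SERPINE2 rose with 13.8 (0.96 ± 0.14, adjusted p = 1.4e-04), did not pass with 13.6 (0.29 ± 0.14, adjusted p = 0.12; 0.47, adjusted p = 0.00507, without control replicate 1), and was lower with 13.6 than with 13.8 (−0.67 ± 0.14, adjusted p = 0.0016). TIMP3, the matrix-bound TIMP, had 20 reads or fewer in every library and was lower with 13.6 than with 13.8 (−1.61 ± 0.59, adjusted p = 0.031); the call was lost without 13.6 replicate 1 (−1.49, adjusted p = 0.0839), without 13.6 replicate 2 (−1.26, adjusted p = 0.116), without 13.8 replicate 2 (−1.69, adjusted p = 0.0514), without 13.8 replicate 3 (−1.25, adjusted p = 0.136) and with no filter (−1.59, adjusted p = 0.0579).

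**Figure D5:**
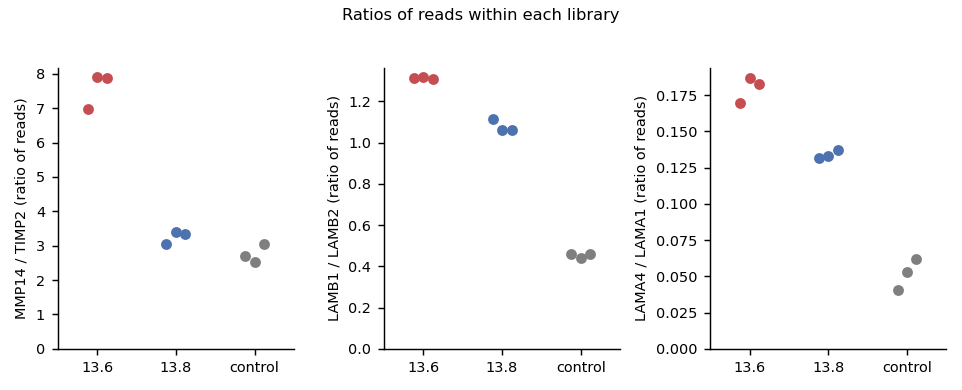
Reads of MMP14 over TIMP2, LAMB1 over LAMB2 and LAMA4 over LAMA1 within each library (y axes from 0), for DsiRNA 13.6, DsiRNA 13.8 and control, 3 libraries each. MMP14 over TIMP2 is 6.99 to 7.92 with 13.6, beside 2.54 to 3.39 in the other 6 libraries, and the 2 laminin ratios are above control in all 6 knockdown libraries.

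Plasminogen activation genes rose with both DsiRNAs in 2 of 2 tested (medians 0.40 with 13.6 and 0.78 with 13.8). PLAT, tissue plasminogen activator, gave 299.5, 309 and 316 CPM with 13.6, 484, 495 and 491 CPM with 13.8, and 213, 263 and 263 CPM in control. All knockdown libraries were above control, and 13.8 above 13.6. PLAT rose with 13.6 (0.32 ± 0.08, adjusted p = 0.0033) and with 13.8 (0.99 ± 0.08, adjusted p = 2.0e-07), and was lower with 13.6 than with 13.8 (−0.67 ± 0.08, adjusted p = 6.6e-06). PLAUR, the receptor of urokinase, gave 4.05, 5.15 and 5.08 CPM with 13.6, 5.25, 5.20 and 4.90 CPM with 13.8, and 3.38, 3.04 and 3.89 CPM in control, above control in every knockdown library. It rose with 13.6 (0.47 ± 0.14, adjusted p = 0.013) and with 13.8 (0.57 ± 0.14, adjusted p = 0.0033), and the knockdown groups overlapped (−0.10 ± 0.13, adjusted p = 0.53). The first call was lost without control replicate 2 (0.39, adjusted p = 0.0532), without 13.6 replicate 2 (0.41, adjusted p = 0.0549) and without 13.6 replicate 3 (0.42, adjusted p = 0.0543). PLAU, urokinase itself, had 0 to 1, 0 to 5 and 0 to 3 reads in 13.6, 13.8 and control and was not tested.

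A short RNA can also lower mRNAs whose 3′ UTR pairs with its seed. An earlier search of these data, made over all genes, had picked the 7-base word GCTCTGT for 13.6 and AACTGTC for 13.8; the sequences of the DsiRNAs were not used here. In this search of one GENCODE v29 transcript per gene, carriers of GCTCTGT had a median log2 fold change of −0.10 with 13.6 beside 0.02 for other genes, and carriers of AACTGTC had −0.22 beside 0.02 with 13.8. Since the words were picked on these data, these medians restate that choice and support nothing by themselves. The sites of the tested genes that carry GCTCTGT are shown, since TIMP2, LAMC1 and ADAM10, described above, are among them, with the word in capitals and the flanks in lower case.
TIMP2 (chromosome 17): aatttaaaGCTCTGTtgattttg
TIMP3 (chromosome 22): agtgctctGCTCTGTccagggta
LAMC1 (chromosome 1): gatcctcaGCTCTGTggttttaa
ADAM10 (chromosome 15): ccctgtttGCTCTGTctctctct
ADAM12 (chromosome 10): gctatggtGCTCTGTctacttgc
These 5 of 42 searched genes (11.9%, beside 18.4% of 12383 tested genes) did not move one way with 13.6: TIMP2 fell, LAMC1, ADAM10 and ADAM12 rose and TIMP3 did not pass (−0.81 ± 0.66). AACTGTC is in LOX, LOXL3 and MMP1 (7.14%, beside 9.92%), of which LOXL3 and MMP1 rose with 13.8. Whether either word has a part in a change was not tested.

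Cell-type markers were read beside these changes. The fibroblast markers PDGFRA, PDGFRB, DCN, LUM, COL1A1, COL3A1, THY1, POSTN and FAP made up the sum given above, and 7 of the 9 were tested. All 7 rose with 13.8, where 27.5% of all tested genes rose, and THY1 and POSTN rose with 13.6, where 24.9% did. DCN had enough reads to be tested only through the 13.8 libraries, in which it is high. PDGFRA, a fibroblast receptor, had mean levels of 0.458 CPM with 13.6, 0.904 CPM with 13.8 and 0.396 CPM in control. Several genes of this list code for matrix proteins themselves, and none had 0 reads in a whole group. Keratinocyte markers summed to 42.9 to 44.5, 39.4 to 44.5 and 41.1 to 46.4 CPM in 13.6, 13.8 and control, nearly all of it KRT10, and KRT5 had 0 reads in all 9 libraries. Leukocyte markers gave 98.8 to 105, 75.8 to 81.5 and 72.8 to 78.1 CPM, nearly all of it CD68, a lysosomal protein, and endothelial markers 0.44 to 0.68, 0.84 to 1.16 and 0.96 to 1.23 CPM.

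Of 199 further matrix genes in the table, 129 were tested. With 13.6, 41 rose and 21 fell (48.1% called, median 0.16), and with 13.8, 79 rose and 5 fell (65.1%, median 0.49). Directly, 26 were higher and 63 lower with 13.6 than with 13.8 (69%, median −0.52). The background shares are those given for all genes above. Some of these further genes had enough reads to be tested only through the 13.8 libraries in which they are high. Examples are ECM2 (17, 27 and 19 reads with 13.8 and at most 2 in any other library), MMP19, ADAMTS3, PRSS23 and DCN. The counts, shares and medians with 13.8 and in the direct comparison, here and by list below, are therefore descriptions. The 11 further protease inhibitors had 4 rises and 3 falls with 13.6 and 8 rises with 13.8 (medians 0.36 and 1.48), and the 19 proteoglycan and hyaluronan genes 9 rises with 13.6, and 12 rises and 1 fall with 13.8 (medians 0.31 and 0.80). Among the 37 other glycoproteins 8 rose and 7 fell with 13.6, and 19 rose and 2 fell with 13.8 (medians 0.04 and 0.49). The 38 other proteases and glycosidases gave 10 rises and 7 falls with 13.6, and 21 rises and 2 falls with 13.8 (medians −0.01 and 0.60). Collagen-modifying enzymes rose in 7 of 13 and fell in 2 with 13.6, and rose in 10 with 13.8 (medians 0.41 and 0.36), and receptors other than integrins rose in 3 of 11 and fell in 2 with 13.6, and rose in 9 with 13.8 (medians 0.16 and 0.37).

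With 13.6 the largest rises of these further genes, among those with a mean of at least 1 CPM over all 9 libraries, were POSTN, which codes for periostin (2.72 ± 0.43), the protease ADAMTS16 (2.17 ± 0.28), the microfibril protein MFAP2 (1.90 ± 0.23), the protease trap A2M (1.62 ± 0.15) and the netrin NTN1 (1.51 ± 0.09). The largest falls were those of CYR61 (−2.16 ± 0.14) and CTGF (−1.39 ± 0.08), matricellular proteins now named CCN1 and CCN2, of SPOCK2, a testican (−1.52 ± 0.31), of the thrombospondin THBS4 (−1.10 ± 0.30) and of the collagenase MMP8 (−1.08 ± 0.27). CYR61 stood at 13.4 CPM with 13.6, 65.6 CPM with 13.8 and 59.9 CPM in control, and CTGF at 21.4, 97.9 and 56.3 CPM. POSTN met the mean of 1 CPM only through the 13.8 libraries, at 0.487 CPM with 13.6, 4.08 CPM with 13.8 and 0.0725 CPM in control, where it had 9 reads in all. MFAP2 met it only through the 13.6 libraries in which it is high, at 2.28 CPM with 13.6, 1.25 CPM with 13.8 and 0.609 CPM in control. The place of MFAP2, here and in the direct comparison below, is therefore a description.

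With 13.8 the largest rises were POSTN (5.78 ± 0.33), the proteoglycan PRELP (3.87 ± 0.13), the aggrecanase ADAMTS4 (3.70 ± 0.34), the serine protease FAP (3.64 ± 0.31) and the collagen receptor DDR2 (3.28 ± 0.20). PRELP stood at 1.75 CPM with 13.6, 19.1 CPM with 13.8 and 1.31 CPM in control, and DDR2 at 1.00, 12.8 and 1.30 CPM. POSTN, ADAMTS4 (0.237, 3.78 and 0.291 CPM) and FAP (0.235, 3.32 and 0.264 CPM) met the mean of 1 CPM only through the 13.8 group in which they are high, so their place in this order is a description. All 5 falls with 13.8 were smaller: the laminin chain LAMC3 (−0.83 ± 0.12), the proteoglycan CSPG4 (−0.62 ± 0.17), ADAMTS17 (−0.52 ± 0.12), the elastin interface protein EMILIN2 (−0.40 ± 0.07) and the lysosomal protease CTSD (−0.24 ± 0.06). Directly, EMILIN2 (1.25 ± 0.07), the syndecan SDC3 (1.00 ± 0.07), NTN1 (0.91 ± 0.08), MFAP2 (0.86 ± 0.20) and the collagen glycosyltransferase COLGALT2 (0.77 ± 0.09) were higher with 13.6 than with 13.8, and ADAMTS4 (−3.96 ± 0.34), FAP (−3.78 ± 0.32), DDR2 (−3.68 ± 0.21), PRELP (−3.45 ± 0.13) and POSTN (−3.06 ± 0.24) were lower.

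Counts of overlapping genes carry a limit. In GENCODE v29, 24 of the 47 genes share exon bases with another annotated gene, mostly on the opposite strand, and 6 share at least 10% of them: LAMA1, NID2, HSPG2, LOXL3, ADAM17 and PLAU. The kit keeps strand, but the strand setting of the counting is not given in the sources used here, so reads of these genes and of their partners may not be fully told apart.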

How the data were processed

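Total RNA of 9 libraries was measured, 3 for each of DsiRNA 13.6, DsiRNA 13.8 and control. The deposited file gives, for each gene symbol, raw whole-number counts. Tools named in the submitters' processing notes are STAR, HTSeq, cutadapt, FastQC and DESeq2, with hg19 as build. Not given in the sources used here are versions, annotation and strand setting. The authors' normalized table was not used. Of 25398 entries, 16 exact repeats were left out, and 28 entries whose names had become dates (0.2% of counts) were kept in the totals. Groups came from the labels.

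The analysis of counts used edgeR 4.0.16 under R 4.3.3. filterByExpr, with at least 10 reads, left 14731 genes, scaled by TMM. A robust quasi-likelihood model with 1 mean per group was fitted to all 9 libraries, leaving 6 residual degrees of freedom, and all tests are two-sided. It was checked on simulated counts. Replicates differed by more than counting noise, at 4.77 to 40.3 chi-square units per degree of freedom. Nothing states that replicates came from separate cultures beyond the word biological, so p-values measure the spread between these libraries.

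At 38105026 to 52272147 reads, 1 CPM is about 40 reads; members under that level carry wide errors. The members and gene lists were chosen with earlier results of these data known. Every member is named; values per library are given for members called in at least 1 comparison with a log2 change of at least 0.5 there and a mean of at least 1 CPM. Of other matrix genes, the 5 largest called changes in each direction are named at a mean of at least 1 CPM. Transcript lengths and 3′ UTRs come from GENCODE v29 (1 principal transcript per gene) and promoters from RefSeq (GRCh38.p14), neither on the build of the counts. Alternatives were DESeq2 1.42.0, its size factors or library totals in edgeR, no filter, a mean of at least 50 reads, only the 2 groups compared, a replicate block, and leaving out each library.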

Additional observations from a re-analysis of the deposited data

Results flagged for a closer look

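In 7 of the 42 tested genes the 2 DsiRNAs gave calls in opposite directions against the shared control, and the direct comparison of 13.6 with 13.8 was past the threshold of 0.05 in edgeR's quasi-likelihood test (p adjusted by Benjamini-Hochberg). Of all 14731 tested genes, 49.9% were called with 13.6 and 55.5% with 13.8. How many of them met this same rule was not counted, so the 7 are a description and not a trait of the matrix genes. In 6 of the 7, 13.6 lay below control and 13.8 above it: FN1 (direct log2 difference −0.83), LAMA1 (−0.85), LAMB2 (−1.05), MMP17 (−0.90), TIMP2 (−1.50) and PLOD2 (−1.23). ADAM17 went the other way (0.85). TBX3 itself was at 42.3 CPM with 13.6, 35.4 CPM with 13.8 and 85.5 CPM in control, a direct difference of 0.26 ± 0.07 for 13.6 against 13.8. In LAMA1, LAMB2, MMP17, TIMP2, PLOD2 and ADAM17 no library of 1 group overlapped another group, and the calls held in every alternative run; the fall of FN1 with 13.6 was lost when control replicate 1, 13.6 replicate 2 or 13.6 replicate 3 was left out. What sets the DsiRNAs apart was not tested.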

How the results depend on the processing

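Of 88 calls of members in the 3 comparisons, 72 held in every alternative that tested them and 16 were lost in at least 1. The alternative with a mean of at least 50 reads tested 90 of the 126 values of members, and the fits of only the 2 groups compared tested 120. Calls of members left out there were not put to those alternatives. No value changed sign with a call. By comparison, 20 of 28 calls of 13.6 against control, 27 of 29 of 13.8 against control and 25 of 31 of 13.6 against 13.8 held throughout, and the lost ones are named beside their values in the text above. Counts of members called stayed within 1.5 times the reported ones in all alternatives, except the single fall with 13.8 (ADAM17), which leaving out 1 library brought to 1 to 2, FBLN1 being added without control replicate 3 (−0.25) or without 13.8 replicate 1 (−0.24). Rises with 13.6 numbered 16 to 21 and falls 6 to 9 when a library was left out, and rises with 13.8 numbered 26 to 29. In the other alternatives rises with 13.8 numbered 22 to 28, and members lower with 13.6 than with 13.8 numbered 17 to 25. Whether same-numbered libraries were handled together is not stated. Their deviations from the group means correlated at −0.179 to 0.187, beside −0.248 to 0.187 for libraries of different numbers. The replicate block called 8010, 8803 and 9581 of all genes, beside 7357, 8169 and 8995 without it. These counts are for 13.6 against control, 13.8 against control and 13.6 against 13.8. A shared effect of replicate number was not tested. With the replicate block, 20 members rose and 8 fell with 13.6, and 27 rose and 1 fell with 13.8; the block ended the calls of NID1 with 13.8 (0.91, adjusted p = 0.0505) and of FBLN2 for 13.6 against 13.8 (−1.40, adjusted p = 0.058), and added that of SPP1 for 13.6 against 13.8. NID1, FBLN2, THBS2, TIMP3 and LOXL1, which lost calls, had at most 36 reads in any library. FBN1, with 9 to 77 reads, lost a call as well, and for LOXL1 and FBN1 it was only that of 13.6 against 13.8. MMP1 and LOXL3, at up to 35 and 61 reads, kept theirs with 13.8 in every alternative that tested them. FN1, AGRN, HSPG2, LAMC1, LAMA5, FBLN1, SPP1, ADAM12 and PLAUR also lost calls, with 117 reads or more in every library. All 8 lost calls of 13.6 against control were among these. The part of depth was not tested.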

Other observations

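Across replicates, the 31 members averaging 1 CPM or more had a median within-group SD of 0.066 with 13.6, 0.104 with 13.8 and 0.152 in control on the log2 CPM scale, beside 0.076, 0.089 and 0.123 over all 12544 genes of that level. Replicate 1 was the highest library for 16 of the 31 genes with 13.6, 23 with 13.8 and 18 in control. The median deviation of these genes from their group mean was 0.035 with 13.6, 0.067 with 13.8 and 0.077 in control for replicate 1, and −0.040, −0.029 and −0.128 for replicate 3, beside values between −0.012 and 0.017 over all genes. FN1, SERPINE2, AGRN, HSPG2 and LAMA5 were among the genes with wide control libraries: HSPG2 ran at 63.1, 55.8 and 39.9 CPM in control replicates 1, 2 and 3.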
